A study of Mus musculus with 6 samples.

Results

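The hormone and factor genes of the pituitary lineages other than the corticotroph were examined in AtT-20, a cell line from a mouse pituitary tumour that has kept the corticotroph's product. The genes are Gh, Prl, Tshb, Lhb and Cga, which encode hormones or hormone subunits, Pou1f1, Hesx1 and Sox2, which encode transcription factors, and the oestrogen receptor gene Esr1. All probe sets that the platform annotation assigns to exactly 1 of these symbols were taken, dim ones included. This gave 13 of the 45037 probe sets that are not controls, for 8 of the 9 genes. No probe set was assigned to Pou1f1, which was not analysed here. The siDNMT1 group received 20 nM of an siRNA against Dnmt1, the maintenance DNA methyltransferase, in repeated treatments over 8 days, and the siNT group received a non-targeting siRNA at the same dose for the same time. Both groups therefore share the cell line and the siRNA delivery. There were 3 arrays in each group, 1 from each of 3 independent repeats, and every result comes from this single line.

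The anterior pituitary holds several secretory cell types that arise from common progenitors. Corticotrophs make pro-opiomelanocortin under the control of the T-box factor encoded by Tbx19. Somatotrophs, lactotrophs and thyrotrophs make growth hormone, prolactin and thyrotropin, and all depend on the POU factor Pou1f1, also called Pit-1. Gonadotrophs make luteinising and follicle-stimulating hormone. Cga encodes the alpha subunit that is shared by thyrotropin and the gonadotropins, while Tshb and Lhb encode the beta subunits that give each hormone its identity. Hesx1 is a homeobox repressor of the early pituitary primordium, and Sox2 marks its progenitor and stem cells.

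Of the 8 genes measured, only Sox2 had a signal above background on all 6 arrays, and it was there in siDNMT1 and siNT cells alike. No probe set of the hormone genes, Hesx1 or Esr1 was above background on all 6. None of the members passed the test for a difference between siDNMT1 and siNT cells. In the fit without pairing neither did any of the 27022 probe sets tested (0%), those of Dnmt1 included. With the repeat number as a block 23 probe sets passed (0.0851%), those of Dnmt1 included, and again no member. The Dnmt1 probe sets did not pass with the block and no filter on low values. Hesx1 signals were higher on all siDNMT1 arrays than on any siNT array, which held for 3.92% of all probe sets. However, only its signal in siDNMT1 repeat 1 was above background, and all its siNT signals were below it.

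The stretches of DNA just before the starts of 3 of these genes are given to show what kind of promoter lies behind a member that was above background and behind members that were not. They are the 250 bases before the RefSeq start on assembly GRCm38.p6. Sox2 (chr3:34649745-34649994, plus strand), Prl (chr13:27057320-27057569, plus strand) and Hesx1 (chr14:27000112-27000361, plus strand) are printed 5′ to 3′. In the Sox2 sequence capitals mark the dinucleotide CG (CpG), the site that Dnmt1 methylates. In the Prl and Hesx1 sequences capitals mark TATNCAT, a short form of the site that Pit-1 binds, or its reverse complement ATGNATA.
Sox2: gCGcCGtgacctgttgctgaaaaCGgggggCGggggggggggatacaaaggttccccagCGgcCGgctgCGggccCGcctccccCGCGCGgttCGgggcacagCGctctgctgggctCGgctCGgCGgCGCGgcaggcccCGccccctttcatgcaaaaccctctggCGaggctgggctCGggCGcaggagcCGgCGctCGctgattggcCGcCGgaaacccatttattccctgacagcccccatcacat
Prl: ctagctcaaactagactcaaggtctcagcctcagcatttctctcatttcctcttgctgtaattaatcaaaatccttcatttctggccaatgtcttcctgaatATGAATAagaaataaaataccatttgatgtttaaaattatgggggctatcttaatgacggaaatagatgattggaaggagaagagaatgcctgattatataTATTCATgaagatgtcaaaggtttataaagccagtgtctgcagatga
Hesx1: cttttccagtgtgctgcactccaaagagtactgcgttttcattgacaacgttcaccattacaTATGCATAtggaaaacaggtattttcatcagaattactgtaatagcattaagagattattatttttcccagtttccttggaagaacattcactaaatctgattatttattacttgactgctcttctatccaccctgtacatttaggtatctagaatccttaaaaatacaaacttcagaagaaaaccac

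The Sox2 stretch held 27 CpG, more than 91.4% of the 32851 promoter windows in the same RefSeq table. The Hesx1 stretch held 2 and the Prl stretch 1, against a median of 6 over all windows with quartiles of 2 and 16. The windows of Tshb and Cga held 1 and 0 CpG, and that of Lhb held 4. Of the windows at the 2 starts listed for Esr1, 1 held 4 CpG and the other 7. The 2 windows of Pou1f1 held 4 and 0. At least 1 CpG was found in 92.1% of all windows. The Prl window held the Pit-1 letters at 2 places, starting 148 and 47 bases before the start. In Hesx1 the matches on both strands overlap in a single run of 8 bases. The first Pou1f1 window also held 1 match, 57 bases before the start, while Tshb, Lhb, Cga, Esr1 and Sox2 had none. Among all windows 7.92% held at least 1 match and 1.26% at least 2, counted on both strands. Overlapping matches such as those in Hesx1 count as 2, so the 1.26% is not the share with 2 separate places as in Prl. A match is a description of the letters only, and methylation of these sites was not measured. Gh had no entry in the table.

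**Figure D1:**
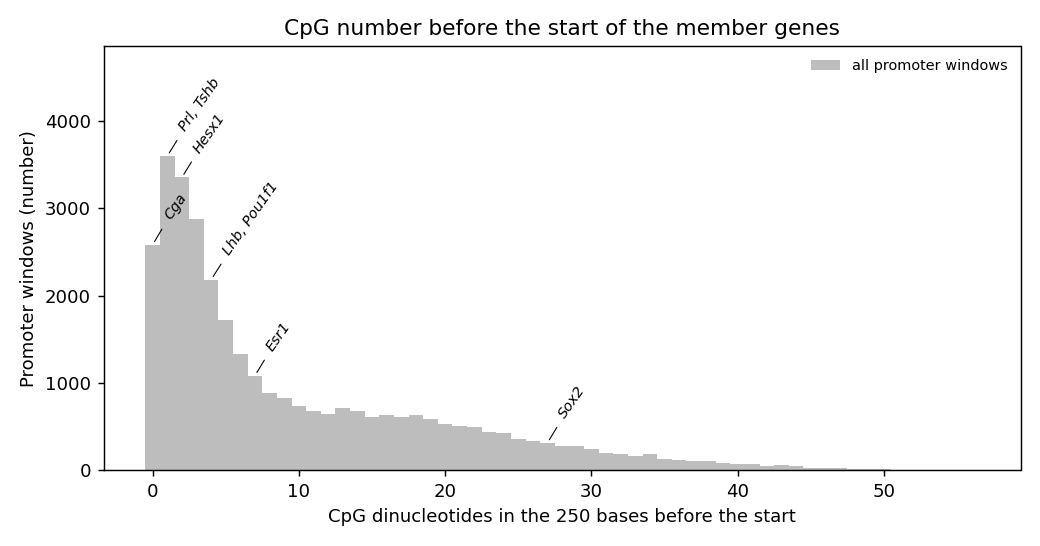
Number of promoter windows (vertical axis) by the number of CpG in the 250 bases before the start (horizontal axis), over all 32851 windows. The labels mark the member genes, each at the window with the most CpG where a gene has several starts, and Sox2, with 27, stands far to the right of the others, which lie at 0 to 7.

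Signals are linear array intensities scaled so that every array has the same median log2 value. They are best compared for the same probe set across arrays, since brightness also depends on the probes. Being above background sets different probe sets against each other, so it is only a rough guide to whether a gene is expressed. The number of arrays limits the precision. On its brightest probe set Dnmt1 had 214, 142 and 301 in repeats 1, 2 and 3 of siDNMT1 cells, against 541, 701 and 619 in siNT cells. The groups did not overlap, and the log2 difference was -1.54 (SE 0.24), with a limma adjusted p of 0.151 and of 0.0211 when the repeat number was kept as a block (0.248 with the block and no filter on low values). Read by their brightest probe sets, the corticotroph markers Pomc, Tbx19, Pitx1, Neurod1 and Crhr1 were all above background on all 6 arrays. The other Pitx1 probe set was not. Avpr1b, Lifr and Gal, which belong to the wider corticotroph list used below, were above background on 0 arrays. Of the markers of other cells, read in the same way, 1 of 5 fibroblast genes (Col1a2), 2 of 4 macrophage genes (Csf1r and Adgre1) and 0 of 3 endothelial genes were above background on all 6. For Col1a2 this was 1 of its 3 probe sets. Ptprc, the common leukocyte antigen, was above it on 0 arrays, and so were Col1a1, Col3a1, Dcn and Lum. Summed fibroblast signals were 135 to 153 in siDNMT1 cells and 123 to 148 in siNT cells. Summed macrophage signals were 190 to 253 in siDNMT1 cells and 191 to 246 in siNT cells, and summed endothelial signals were 83.2 to 102 in siDNMT1 cells and 53.6 to 90.2 in siNT cells, so that all 3 overlapped. Every array came from a single cell line, yet some markers of other cell types passed the limit. A signal above background, that of Sox2 included, therefore does not by itself show that a cell type is present. Within the line, fewer cells that express a gene and less RNA per cell cannot be told apart.

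No detection calls were given with the values, so background was taken from 123 probe sets of genes that a pituitary line is not known to use. They comprise 44 for olfactory receptors, 36 for vomeronasal receptors and 43 for keratin-associated proteins of hair. A probe set counted as above background on an array when its signal exceeded the 95th percentile of these probe sets on the same array. That limit was 34.9, 43.1 and 51.1 on the siDNMT1 arrays of repeats 1, 2 and 3, and 43.9, 42.3 and 54.2 on the siNT arrays. On all 6 arrays 1 of the 123 background probe sets was above it, or 0.813%, and so were 29.0% of all probe sets that are not controls. Of the 13 probe sets studied here 1 was above it on all 6 arrays, 5 on some arrays and 7 on 0.

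**Figure D2:**
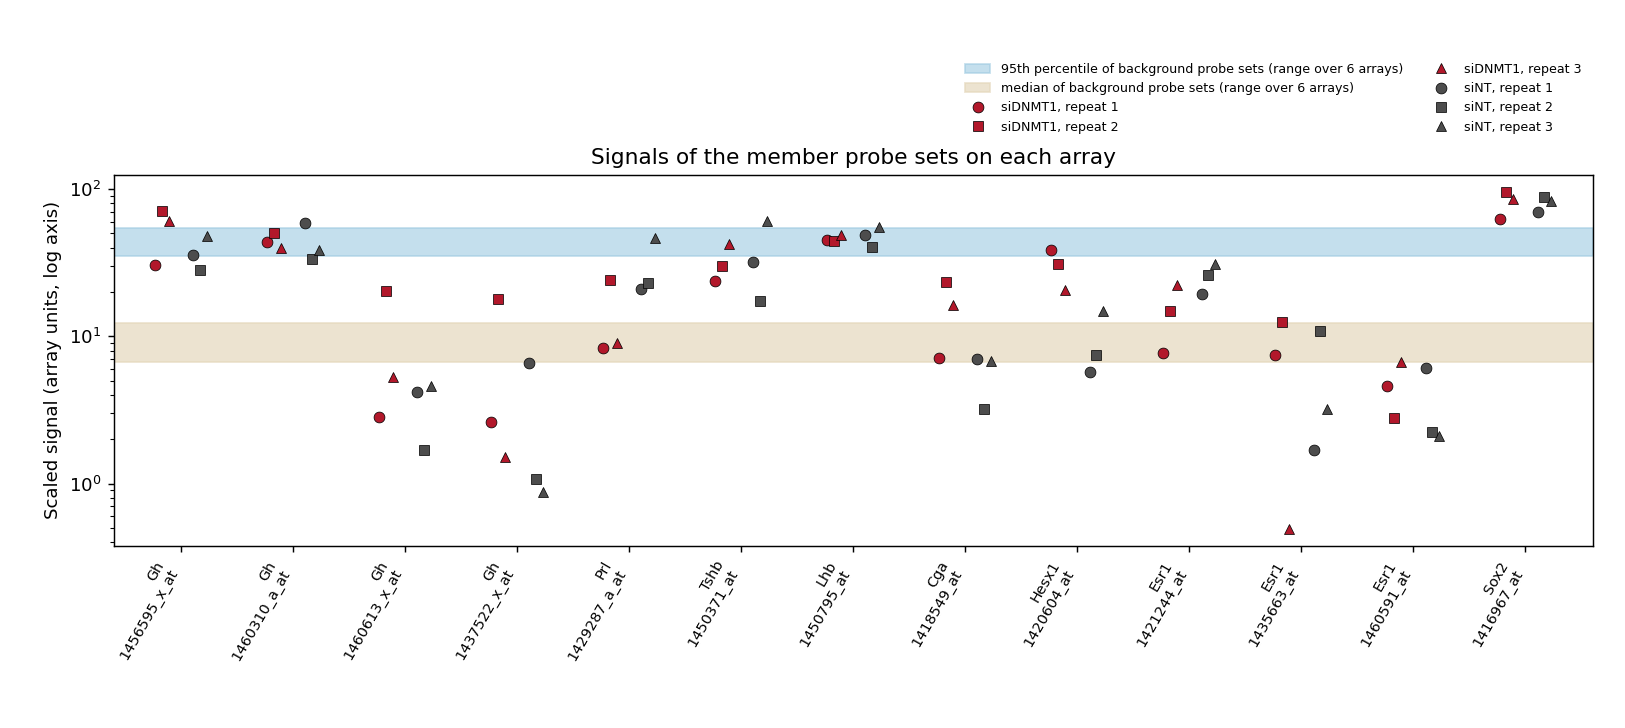
Scaled signal (log axis) of the 13 probe sets on each array, with siDNMT1 arrays to the left of siNT arrays and a marker shape for each repeat. The upper band spans the background limits of the 6 arrays, 34.9 to 54.2, and Sox2 alone lies above it throughout.

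Gh encodes growth hormone, the product of somatotrophs. It is measured by 4 probe sets, of which 3 carry the suffix for probes that may also bind other transcripts. Probe set 1456595_x_at had 30.5, 71.2 and 60.7 in repeats 1 to 3 of siDNMT1 cells, against 35.5, 28.0 and 48.1 in siNT cells. The groups overlapped, and siDNMT1 repeats 2 and 3 were the only arrays above the background limit. Its log2 difference was 0.44 (SE 0.32), with a 95% interval of -0.27 to 1.15 and a limma adjusted p over all tested probe sets of 0.9997. Probe set 1460310_a_at had 43.3, 50.2 and 39.8 in siDNMT1 cells, against 58.4, 33.7 and 38.4 in siNT cells, with a log2 difference of 0.057 (SE 0.26). It was above background on 3 arrays, and its highest array was siNT repeat 1. The remaining 2, 1460613_x_at and 1437522_x_at, were above background on 0 arrays and too dim to be tested. On 1460613_x_at siDNMT1 repeat 2 had 20.3, and the other 5 arrays had 1.69 to 5.25. On 1437522_x_at the same array had 17.8, and the other 5 had 0.873 to 6.58. Repeat 2 of siDNMT1 was thus the highest array on 3 of the 4 Gh probe sets, the 3 whose probes may also bind other transcripts. Without it the log2 differences of the 4, in the order given, were 0.22, -0.025, 0.089 and -0.079, against 0.44, 0.057, 0.58 and 0.47 with all arrays.

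Prl encodes prolactin, the product of lactotrophs, and belongs to the same hormone family as growth hormone. Its probe set had 8.27, 24.2 and 8.97 in siDNMT1 cells, against 20.8, 23.0 and 46.5 in siNT cells. All 6 values were below the background limit. The groups overlapped because of siDNMT1 repeat 2, which was above siNT repeats 1 and 2. Between siDNMT1 and siNT cells Prl differed by -0.91 on the log2 scale (SE 0.45), with a 95% interval of -1.90 to 0.07, a limma unadjusted p of 0.0664 and an adjusted p of 0.9997. By repeat it was -0.95, 0.06 and -1.86.

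Tshb and Lhb encode the beta subunits of thyrotropin and luteinising hormone. Tshb had 23.6, 30.1 and 42.0 in siDNMT1 cells, against 31.9, 17.4 and 60.8 in siNT cells, and siNT repeat 3 was the only array above background. Lhb had 45.2, 44.1 and 49.0 in siDNMT1 cells, against 48.4, 40.6 and 55.4 in siNT cells. Both genes had overlapping groups. Lhb was above the limit on 2 of 3 siDNMT1 arrays and 2 of 3 siNT arrays. It was furthest from the limit on siDNMT1 repeat 1, at 45.2 against 34.9, and nearer to it on the other arrays. The log2 difference was -0.07 (SE 0.39) for Tshb, with a 95% interval of -0.92 to 0.79. For Lhb it was -0.05 (SE 0.23), with a 95% interval of -0.55 to 0.46. The sign of both turned when siNT repeat 3 was left out, to 0.33 for Tshb and 0.05 for Lhb, so neither has a settled direction.

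Cga, the common alpha subunit, had 7.16, 23.2 and 16.4 in siDNMT1 cells, against 7.05, 3.21 and 6.80 in siNT cells. The groups did not overlap, though siDNMT1 repeat 1 exceeded the highest siNT array by little, and every value was below the background limit. On the log2 scale Cga differed by 0.87, and by repeat 0.01, 1.74 and 0.84. Over all alternatives it ran from 0.51 to 1.23. Cga was too dim to be tested with the others. When all probe sets were tested the limma adjusted p was 0.9996 with an unadjusted p of 0.0589, and an exact permutation test of 3 arrays against 3 gave 0.1, the smallest p it allows. The beta subunit genes Tshb and Lhb had no such separation, and Fshb, the beta subunit of follicle-stimulating hormone, had 0.969 to 1.80 over the 6 arrays.

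Hesx1 had 38.8, 31.0 and 20.5 in siDNMT1 cells, against 5.72, 7.45 and 14.8 in siNT cells. Every siDNMT1 value was above every siNT value. Only siDNMT1 repeat 1 exceeded the background limit of its array, so that siNT signals, and siDNMT1 signals in repeats 2 and 3, were in the range of genes a pituitary line is not known to use. Hesx1 differed by 1.29 on the log2 scale (SE 0.43) with a 95% interval of 0.34 to 2.24, and by repeat it was 2.00, 1.51 and 0.36. The limma unadjusted p was 0.0120 and the adjusted p 0.9997, and the adjusted p was 0.550 with the repeat number as a block. The exact permutation p was 0.1, again the smallest possible. The probe set passed the filter on low values, a mean signal of 16.8, through its siDNMT1 arrays, with a group mean of 30.1 ± 9.18 in siDNMT1 cells and 9.33 ± 4.84 in siNT cells (SD, n = 3 each). The size of the difference depends on the pseudocount, being 1.64 with a pseudocount of 1 and 0.86 with one of 16.

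Sox2 had 62.4, 95.97 and 85.2 in siDNMT1 cells, against 70.3, 87.9 and 83.2 in siNT cells. The groups overlapped, and in both of them repeat 1 was the lowest of the 3. Sox2 differed by -0.0021 on the log2 scale (SE 0.22), with a 95% interval of -0.49 to 0.48. By repeat the difference was -0.16, 0.12 and 0.03. Averaged over the arrays, the Sox2 signal was higher than that of 98.9% of the background probe sets. Sox2 lies inside the locus of the long non-coding RNA Sox2ot in the annotation, and whether Sox2ot transcripts contribute to the signal was not tested. The tested probe sets most like it over the 6 arrays, by Pearson correlation of log2 values, were those of Psmg3 (0.992), Thoc5 (0.990), Ibtk (0.988), Arhgap27 (0.987) and Cacul1 (0.987). Values so high are found easily when many probe sets are searched over 6 points that share their array scaling.

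Esr1 encodes oestrogen receptor alpha, through which oestrogen acts on lactotrophs and gonadotrophs. Its brightest probe set, 1421244_at, had 7.68, 14.9 and 22.3 in siDNMT1 cells, against 19.3, 26.2 and 31.0 in siNT cells. Each siDNMT1 array was below the siNT array of the same repeat, but the groups overlapped, and all 6 values were below the background limit. On the log2 scale it differed by -0.65 (SE 0.41), with a 95% interval of -1.55 to 0.25, an adjusted p of 0.9997 in limma and, by repeat, -0.92, -0.64 and -0.39. Without siDNMT1 repeat 1 it was -0.37, and over all alternatives it ran from -0.91 to -0.37. The other Esr1 probe sets, 1435663_at and 1460591_at, were dimmer and not tested, with signals of 0.490 to 12.4 and 2.09 to 6.67 over the 6 arrays. Their log2 differences were 0.15 and 0.20, opposite in sign to the brightest.

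**Figure D3:**
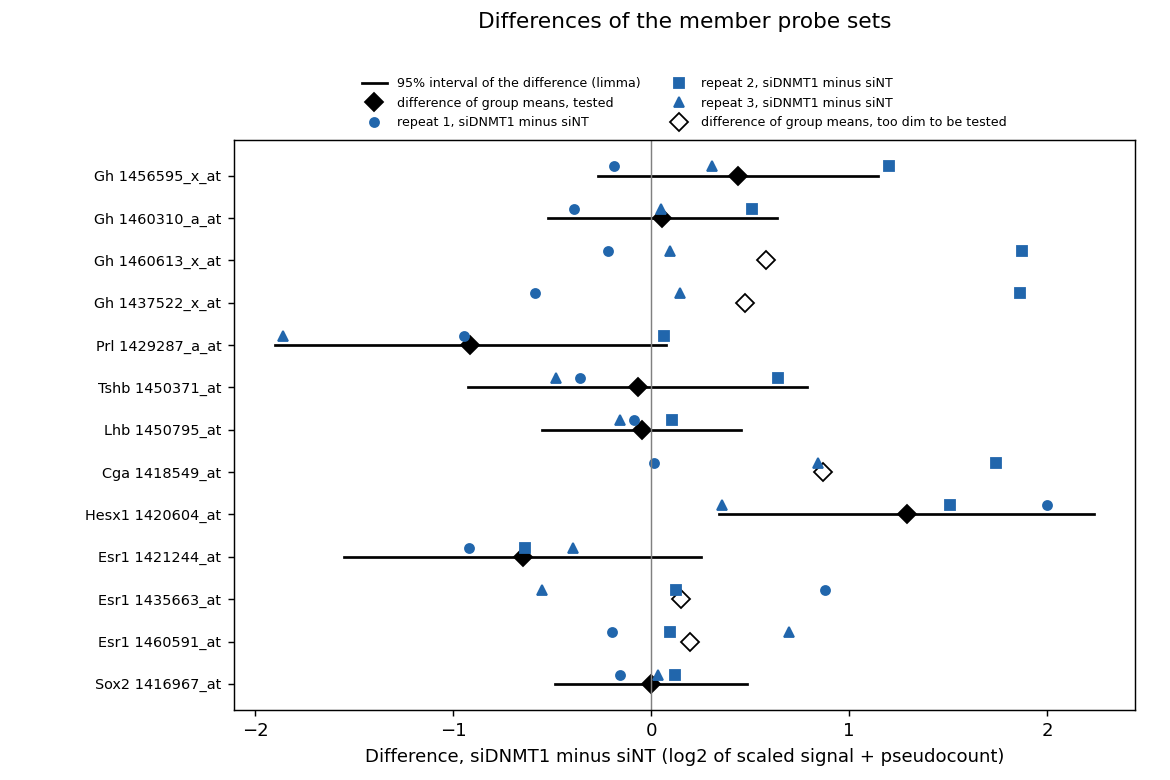
Log2 difference of siDNMT1 minus siNT for the 13 probe sets (diamonds, filled where tested), with the values of repeats 1 to 3 above each. The 95% intervals of the 8 tested are from limma without the repeat number as a block. The interval of Hesx1, 0.34 to 2.24, is the only one that does not reach 0 before adjustment for the number of probe sets. Hesx1 passed the filter through its siDNMT1 arrays, and only siDNMT1 repeat 1 was above background.

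Across the members, 8 probe sets had a mean signal at or above the filter and were tested, and 5 were too dim. Prl and Esr1 1421244_at passed with help of their siNT arrays, as Hesx1 did through its siDNMT1 arrays. Limma called 0 of the 8 at an adjusted p of 0.05, where it called 0% of all 27022 tested probe sets, and 0 of the 8 with the repeat number as a block, where it called 0.0851%. At an unadjusted p under 0.05 there was 1 of 8, Hesx1, in either fit, against 3.79% of all tested probe sets without the block and 7.83% with it. The median log2 difference was -0.02 over the 8 and -0.06 over all tested. Over all 13 probe sets the groups did not overlap for 2 with siDNMT1 higher, Hesx1 and Cga, against 3.92% of all 45037 probe sets, and for 0 with siDNMT1 lower, against 5.01%. Hesx1 and Cga were also the 2 that were higher in 3 of 3 repeats, which held for 11.8% of all probe sets. Esr1 1421244_at was the 1 that was lower in 3 of 3, which held for 15.9%. The 13 include 4 probe sets of Gh and 3 of Esr1, which share a gene, and nothing particular to the members follows from counts of 1 or 2.

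The members were also set among other genes of the pituitary lineages in 5 lists, which hold the members as well. Each gene was read by its brightest probe set, and genes without a probe set were not counted. Of the corticotroph list 7 of 10 genes were above background on all 6 arrays, of the Pou1f1 lineage list 1 of 11, of the gonadotroph list 4 of 12, of the melanotroph list 0 of 2 and of the list of pituitary development and stem cells 2 of 14, 1 of them Sox2. The gene of the Pou1f1 lineage list was Foxo1, a forkhead factor with roles in many tissues, with 106 to 122 in siDNMT1 cells and 93.7 to 131 in siNT cells. Of the receptor genes by which hypothalamic signals reach the other lineages, none on the lists was above the limit on all arrays. Ghrhr, the receptor for growth hormone-releasing hormone, was above it on 1 array, siDNMT1 repeat 2, and Trhr, Drd2 and Gnrhr, the receptors for thyrotropin-releasing hormone, dopamine and gonadotropin-releasing hormone, on 0.

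Among the gonadotroph genes, Gata2 and Foxl2 encode transcription factors of the gonadotroph programme. Both were above background on all 6 arrays, Foxl2 on 1 of its 2 probe sets. The gonadotropin subunit genes Lhb, Fshb and Cga were not, though Lhb was above it on 4 arrays. Gata2 had 145, 137 and 133 in siDNMT1 cells, against 129, 164 and 168 in siNT cells, and Foxl2 had 205, 126 and 147 in siDNMT1 cells, against 215, 145 and 211 in siNT cells. Inha, the inhibin alpha subunit, had 166, 119 and 151 in siDNMT1 cells, against 161, 187 and 196 in siNT cells. All 3 had overlapping groups. Their log2 differences were -0.14 (SE 0.18) for Gata2, -0.25 (SE 0.23) for Foxl2 and -0.32 (SE 0.19) for Inha. Egr1, an immediate early factor that acts on the Lhb promoter, varied more between repeats, with 74.1, 232 and 148 in siDNMT1 cells, against 99.2, 771 and 391 in siNT cells, and a log2 difference of -1.16 (SE 0.60). By repeat it was -0.40, -1.71 and -1.37, lower in 3 of 3, and with the repeat number as a block the SE was 0.22 and the limma adjusted p 0.110.

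Six6, an eye and pituitary homeobox gene, was the other developmental gene above background on all 6 arrays beside Sox2. It had 300, 303 and 299 in siDNMT1 cells, against 323, 407 and 368 in siNT cells, and the groups did not overlap. The log2 difference was -0.27 (SE 0.16), with a limma adjusted p of 0.9997. Lhx4, a LIM homeobox factor of early pituitary growth, and Fgf10, a growth factor of the primordium, were named after their values were seen, because with Hesx1 and Six6 they were the 4 of 14 genes of that list whose groups did not overlap. Hesx1 and Fgf10 were higher in siDNMT1 cells, as were 3.92% of all probe sets, and Lhx4 and Six6 lower, as were 5.01%. Lhx4 had 21.1, 10.6 and 10.8 in siDNMT1 cells, against 41.1, 31.7 and 31.0 in siNT cells, and Fgf10 had 12.04, 18.1 and 20.4 in siDNMT1 cells, against 5.24, 2.51 and 9.81 in siNT cells. Both were below the background limit on all 6 arrays. The related progenitor factors Sox3 and Sox9 were each above it on 2 arrays.

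Among the corticotroph genes above background on all 6 arrays, those with the smallest p were Crhr1, the receptor for corticotropin-releasing hormone, at -0.36 (SE 0.20) and the basic helix-loop-helix factor gene Neurod1 at -0.35 (SE 0.20), followed by the homeobox factor gene Pitx1 at 0.13 (SE 0.17) and Pomc at -0.15 (SE 0.23). In the 5 lists limma called 0 genes in either direction, beside 0% of all tested probe sets, and 0 with the repeat number as a block, beside 0.0851%. The median log2 differences of the tested genes were -0.02 for the corticotroph list, 0.01 for the Pou1f1 lineage list, -0.20 for the gonadotroph list, -0.08 for the melanotroph list and 0.01 for the list of development and stem cells, beside -0.06 over all tested probe sets.

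**Figure D4:**
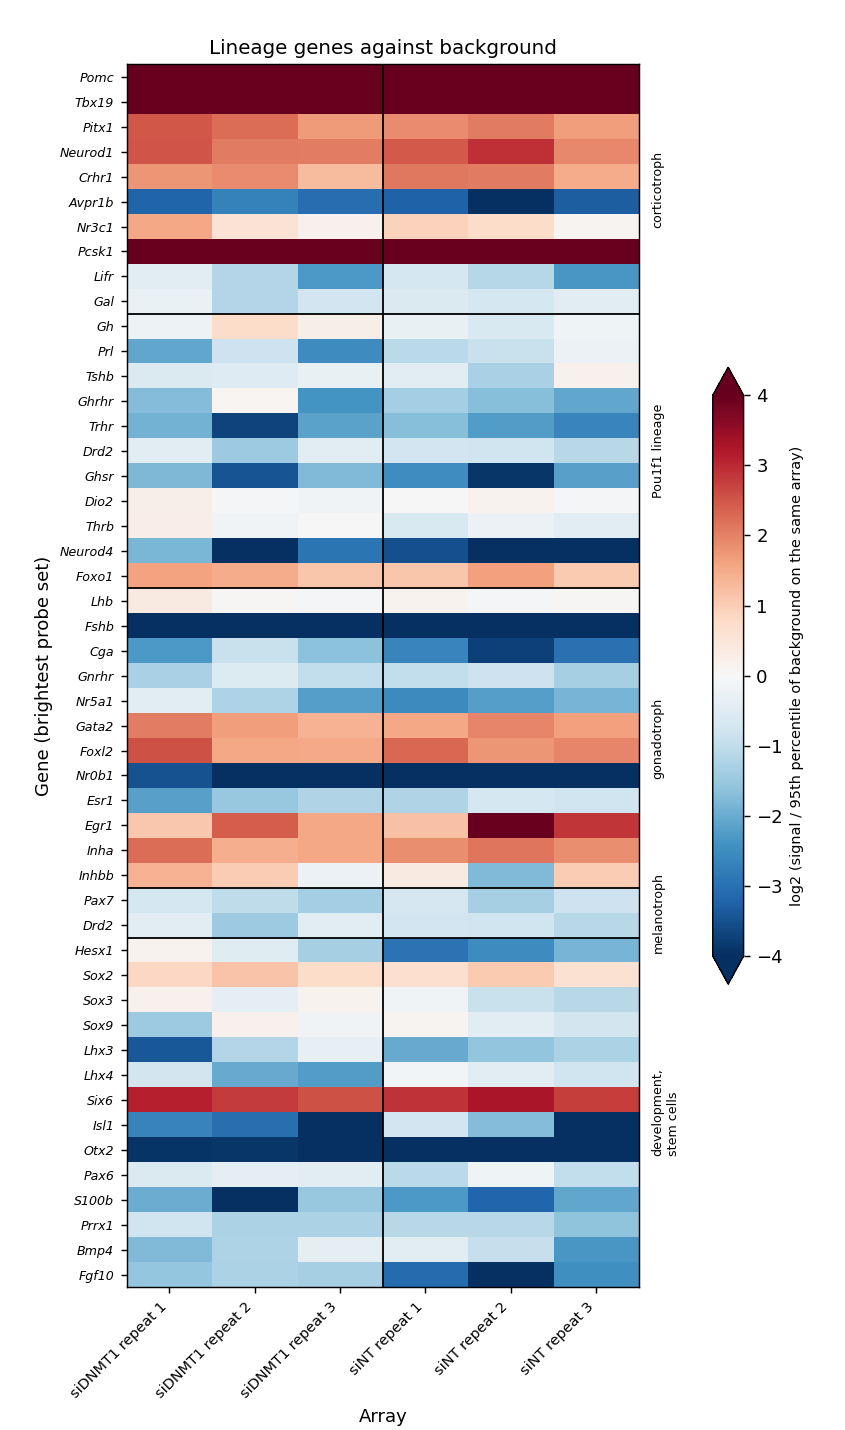
Signal of each lineage gene on each array as the log2 ratio to the background limit of that array, siDNMT1 arrays left of siNT arrays, with colours that saturate past 4 in either direction. Of the genes drawn, 7 of 10 corticotroph genes are red on all 6 arrays, as are Foxo1, Gata2, Foxl2, Egr1, Inha, Sox2 and Six6.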

How the data were processed

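RNA abundance was measured on 6 Affymetrix arrays of AtT-20 cells, 3 siDNMT1 and 3 siNT, grouped by the sample titles. The authors deposited 1 intensity per probe set and array, made with GCOS per the submitters' processing notes; the sources used here state neither its settings nor a scaling target. Deposited medians ran from 19.8 to 36.3, so arrays were brought to a common median on the log2 scale. A pseudocount of 5.29, the 20th percentile of all deposited values, was added before taking log2, so changes of dim probe sets come out too small. Tests covered the 27022 probe sets whose mean scaled signal reached the 40th percentile, 16.8, and used limma 3.58.1 in R 4.3.3 (eBayes with trend, two-sided, Benjamini-Hochberg over all of them); the code was tested on simulated data. Deviations of arrays with the same repeat number from their group means correlated at 0.173, 0.231 and 0.257. Between arrays with different numbers all correlations were negative, from -0.179 to -0.0283, so arrays of the same number were more alike. The main fit left this pairing out, and SEs and intervals are from that fit unless the block is named. With the repeat number as a block the SEs of the tested members ran from 0.18 (Sox2) to 0.46 (Hesx1). Without it they ran from 0.22 (Sox2) to 0.45 (Prl). Symbols came from the platform annotation, and sequences from RefSeq tables of GRCm38.p6, which held 8 of the 9 genes. Members and lists were chosen with earlier results of these data known. Named list genes were those above background on all 6 arrays, up to 4 a list by smallest unadjusted p. Tbx19 was named as a marker, and Avpr1b, Lifr, Gal, Fshb, Ghrhr, Trhr, Drd2, Gnrhr, Sox3, Sox9, Lhx4 and Fgf10 outside this rule, after their values were seen.

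Alternatives were 3 other scalings, pseudocounts of 1 and 16, no filter and a stricter one at the 60th percentile, eBayes without the trend, the repeat number as a block, leaving out each array in turn, and 3 other background limits.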

Additional observations from a re-analysis of the deposited data

How the results depend on the processing

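No member passed the threshold under any of the 16 alternatives. With the stricter filter only Gh 1456595_x_at, Gh 1460310_a_at, Lhb and Sox2 were bright enough to be tested. Of the 208 alternative values of the 13 probe sets, 13 were turned in sign on tested probe sets, however small the move. The other 195 kept their direction, save some of the untested Gh 1437522_x_at and Esr1 1435663_at. Sox2 turned to 0.056 with trimmed mean scaling, 0.052 with quantile scaling and 0.028 without scaling, and from -0.13 to 0.17 when single arrays were left out, and Lhb was at 0.0075 with trimmed mean scaling and from -0.15 to 0.049 with single arrays left out. With single arrays left out Gh 1460310_a_at ran from -0.088 to 0.27 and Tshb from -0.44 to 0.33. The untested Gh 1437522_x_at and Esr1 1435663_at turned as well, to -0.079 and to -0.19 at the lowest. Over all alternatives Hesx1 stayed between 0.86 and 1.64, and Prl between -1.25 and -0.61. Hesx1 fell below the filter and was not tested without siDNMT1 repeat 1 or with the stricter filter. The number of member probe sets above background on all 6 arrays was 2 at the 90th percentile of the background probe sets (Sox2 and Lhb). It was 0 at the 99th, where Sox2 missed siNT repeat 1, and 1 whichever array was left out. Against the 40th percentile of all probe sets it was 5, which belong to Gh, Tshb, Lhb and Sox2. Over all probe sets limma called 23 with the replicate block, 1 with that block and no filter, 1 with trimmed mean scaling, 1 with quantile scaling, 2 without scaling, 1 with the stricter filter and 0 to 4 with single arrays left out, 4 of them without siDNMT1 repeat 3. The Dnmt1 difference passed with the replicate block, at -1.54, but not with that block and no filter (limma adjusted p = 0.248), and ran from -1.79 to -1.26 with single arrays left out, passing without siDNMT1 repeat 3. The cause of these shifts was not tested. Dim signals limit the direction of most members.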
